A study of Mus musculus with 4 samples.

Results

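Neuronal genes were followed in primary mouse embryonic fibroblasts (MEFs) that were being reprogrammed towards hepatocytes with or without an intact Prox1 gene. PROX1 is a homeobox transcription factor of the liver, where it is known mainly as a repressor, and of some neural progenitors. The 43 neuronal genes were taken from a list of names, out of 55397 genes in the table, and that list was drawn up with earlier results of these data known. All 43 had a row, and the 37 that averaged 10 or more normalized counts across the 4 libraries were tested. The other 6, Dcx, Stmn3, Nefl, Nefh, Syp and Myt1l, lay under that mean and are given as levels only. A normalized count is the number of reads on a gene divided by the size factor of its library, which evens out depth.

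The MEFs came from E13.5 embryos of the C57BL/6J strain with floxed Prox1 alleles, Prox1(fl/fl), and each line was a pool of several embryos. Every culture received a lentivirus with the 4in1 cassette of hepatocyte reprogramming factors (LV.4TF). The 2 libraries labelled Prox1 KO (KO-labelled below) also received Cre recombinase fused to GFP (FUW-GFP-Cre, treatment 4in1 + cre-GFP), and the control libraries an inactive Cre with the same tag (FUW-GFP-dCre). Both groups therefore carried the floxed alleles, the 4in1 factors and a GFP lentivirus. Cre reached cells by viral transduction, so a culture can hold untransduced cells. RNA was taken on day 14, with 2 libraries in each group, numbered 1 and 2.

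Prox1 itself, on the minus strand at chr1:190118035-190170714 of GRCm38, gave 70 and 63 reads in the KO-labelled libraries and 66 and 24 reads in the controls. As normalized counts these were 72.7 and 61.6 against 60.6 and 25.5, a log2 fold change of 0.75 ± 0.27 (SE) that did not pass the threshold (limma, adjusted p = 0.0936). Cre removes exon 2, and the table gives reads for whole genes, so the deletion cannot be read from it. The labels are used as given below, although Prox1 reads were not lower under Cre. The 4 libraries held between 42469031 and 48524008 reads on genes, so counting error was small for the abundant genes and large for those near the minimum of 10. Whether same-numbered libraries share a MEF line is not stated in the labels. Xist, the RNA of the inactive X chromosome, was at 14495 and 13944 normalized counts in the replicate 1 libraries (KO-labelled and control) and at 4.89 and 1.06 in the replicate 2 libraries, so the numbers also separate libraries with and without Xist RNA. The study used the MEF line as a covariate, and the replicate number was therefore a block in the test.

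Neurons keep stable microtubules in their axons and dendrites with the help of microtubule-associated proteins and neurofilaments, move vesicle cargo along them with kinesins, and release transmitter through SNARE proteins. Adhesion molecules of the immunoglobulin superfamily guide their axons. Many of these genes are not confined to neurons, and several are used by fibroblasts or by any cell that secretes. In cells other than neurons, the repressor REST binds the RE1 element and holds many neuronal genes down.

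Of the 37 tested neuronal genes, 9 were higher and 1 was lower in the KO-labelled libraries. The 9 were Kif1a, L1cam, Ncam1, Nrcam, Map1b, Map2, Stmn2, Uchl1 and Dlg4, and the 1 lower gene was Syt11. Fold changes were small, between 1.12-fold for Dlg4 and 1.43-fold for L1cam among the 9. Over all 15809 genes tested, 11.4% passed the same test, with 5.09% higher and 6.29% lower. The median log2 fold change of the 37 genes was 0.11, compared with 0.00 for all genes tested, and 30 of the 37 had a positive value, compared with 49.3% of all genes. The replicate 1 pair gave a median of 0.15 and the replicate 2 pair 0.12. In these bulk cultures, more cells that use a gene and more RNA per cell cannot be told apart.

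Both KO-labelled libraries lay above both controls for 21 of the 37 genes, compared with 21.8% of all genes, and below both for 2, compared with 22.6%. For the remaining 14 genes the groups overlapped. The test was limma on log2(normalized counts + 1), with Benjamini-Hochberg adjustment over all genes and a threshold of 0.05, and the + 1 understates the changes of genes with few reads. Because few libraries were compared, limma took each gene's SE and p-value largely from the spread of genes at similar levels. The calls rested on the block. Without it, limma called 0 of the 37 genes and 0 genes in all. Without the block, an unadjusted p under 0.05 was found for 10 of the 37 and for 1783 of all 15809 genes. Of the count tests with the block, edgeR called 9 of the 37 (11.4% of all genes) and DESeq2 called 4, Kif1a, Ncam1, Map1b and Map2 (3.83% of the 12595 genes with an adjusted p). These 4 genes passed under every setting that kept the block.

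**Figure D1:**
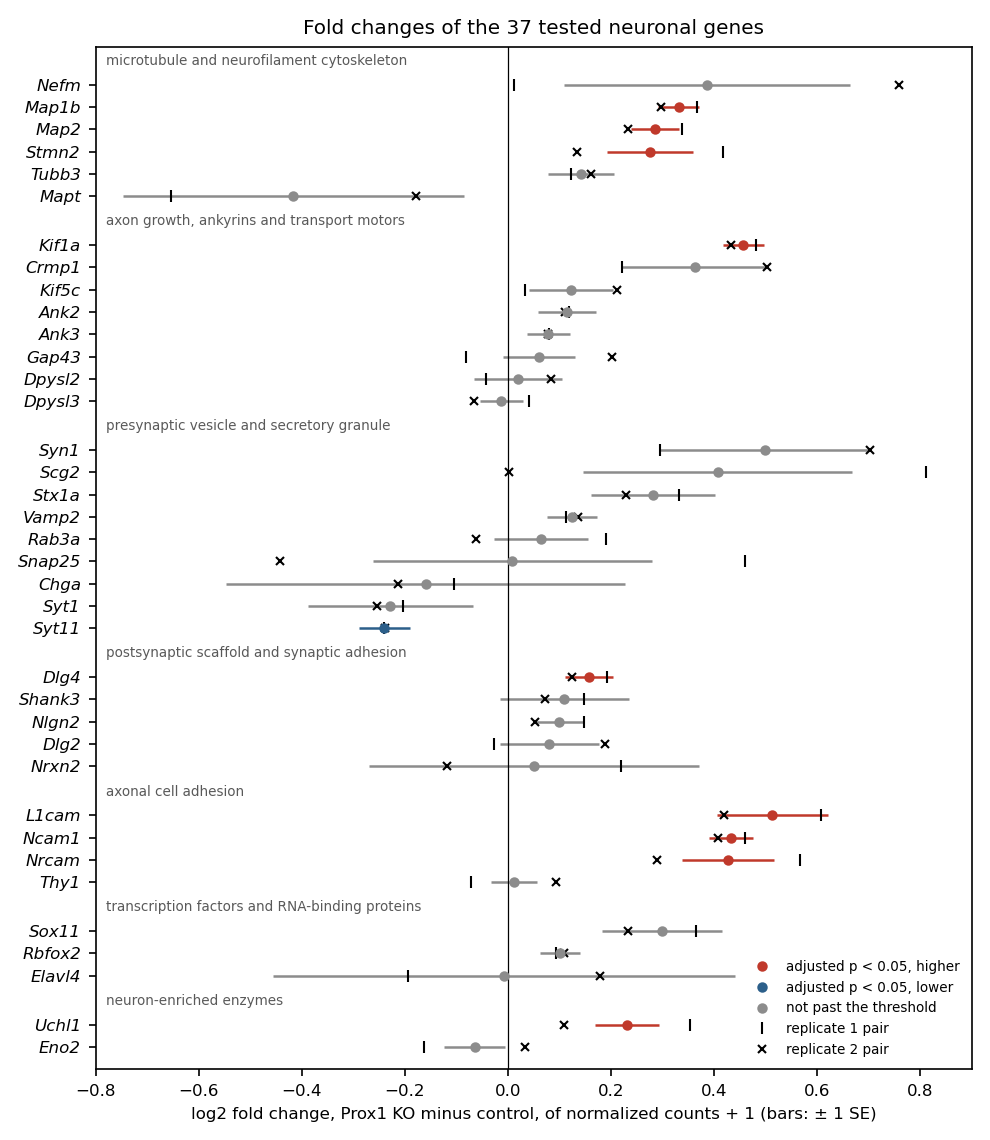
log2 fold changes (Prox1 KO minus control, horizontal axis) of the 37 tested neuronal genes with ± 1 SE, grouped by role, with the replicate 1 pair as a bar mark and the replicate 2 pair as a cross. Red points are the 9 genes that passed the threshold upwards, the blue point is Syt11, and L1cam, Kif1a, Ncam1 and Nrcam lie between 0.43 and 0.51.

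Kif1a encodes a kinesin motor that carries synaptic vesicle precursors along axons. Its gene lies on the minus strand at chr1:93015464-93101951. Kif1a stood at 15123 and 13746 normalized counts in the KO-labelled libraries and at 10840 and 10186 in the controls. The groups were apart, with a gap that was wider than the spread inside either group. The log2 fold change was 0.46 ± 0.04 (SE), or 1.37-fold (adjusted p = 2.75e-06), with 0.48 in the replicate 1 pair and 0.43 in the replicate 2 pair. On the RPKM scale, which divides reads by exon length and library size so that genes can be compared, the mean level of Kif1a was 29.8, at percentile 89.8 of the tested genes.

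Promoter sequence is shown for 4 of the 7 higher genes with a RefSeq window, and for Syn1 because it held the RE1 letters. The windows are the 250 bases before the most upstream start listed in RefSeq (build GRCm38.p6), and each is printed from its 5′ end up to the first base of any exon annotated in GENCODE. The windows of the other 3, Map1b, Uchl1 and Dlg4, were searched and are not shown. Those of Map1b and Uchl1 had too few bases before an annotated exon to print, and Dlg4 was not chosen for printing. RefSeq windows were matched for 28 of the 43 genes. The Kif1a stretch is chr1:93101952-93102124 (minus strand), L1cam chrX:73880835-73881084 (minus), Nrcam chr12:44328635-44328884 (plus), Map2 chr1:66175079-66175272 (plus) and Syn1 chrX:20921005-20921168 (minus). Capitals mark the motif letters that were found.
Kif1a: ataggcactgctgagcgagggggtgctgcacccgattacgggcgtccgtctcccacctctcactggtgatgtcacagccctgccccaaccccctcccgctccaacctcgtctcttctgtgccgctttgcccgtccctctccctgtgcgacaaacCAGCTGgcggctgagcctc
L1cam: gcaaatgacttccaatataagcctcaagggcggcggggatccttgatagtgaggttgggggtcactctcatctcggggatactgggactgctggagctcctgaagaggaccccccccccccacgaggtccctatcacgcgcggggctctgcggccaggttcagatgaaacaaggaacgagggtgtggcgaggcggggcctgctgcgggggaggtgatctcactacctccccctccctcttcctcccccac
Nrcam: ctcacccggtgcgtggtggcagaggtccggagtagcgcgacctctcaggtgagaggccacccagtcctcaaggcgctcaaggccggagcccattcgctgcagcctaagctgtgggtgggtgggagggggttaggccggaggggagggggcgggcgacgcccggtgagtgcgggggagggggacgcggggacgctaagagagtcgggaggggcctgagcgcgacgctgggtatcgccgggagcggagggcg
Map2: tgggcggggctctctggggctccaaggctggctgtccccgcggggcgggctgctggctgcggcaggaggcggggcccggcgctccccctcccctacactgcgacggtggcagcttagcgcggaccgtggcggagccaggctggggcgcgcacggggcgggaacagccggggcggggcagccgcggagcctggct
Syn1: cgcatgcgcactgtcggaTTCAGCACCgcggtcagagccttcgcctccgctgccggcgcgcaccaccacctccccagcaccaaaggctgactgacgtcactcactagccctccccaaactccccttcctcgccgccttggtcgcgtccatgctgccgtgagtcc

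Motifs were searched on both strands of the whole windows of 250 bases, and no motif contains another. The left part of the RE1 element, TTCAGCACC, was in 1 of the 28 neuronal gene windows, that of Syn1, and in 0.292% of the most upstream windows of all 27025 genes in RefSeq. The E-box CAGCTG, a sequence that many basic helix-loop-helix factors bind, was in 5 of the 28 (Kif1a, Nlgn2, Stx1a, Sox11 and Chga) and in 12.7% of all. The letters AAGACG, a part of the palindrome that PROX1 selects in vitro, were in 1 of the 28, that of Rab3a, and in 4.33% of all. The neuronal gene windows had a median GC content of 58.4% and 13.5 CpG dinucleotides, compared with 52% and 6 for all genes. A match describes the letters of these windows only.

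The other growth and transport genes did not pass the threshold. Ank2 and Ank3, ankyrins that anchor membrane proteins to the spectrin cytoskeleton, had log2 fold changes of 0.11 and 0.08 with both pairs positive (adjusted p = 0.237 and 0.280). Kif5c, a conventional kinesin heavy chain, had a value of 0.12 (adjusted p = 0.4). Gap43, a growth cone protein, was at 1157 and 1268 normalized counts under Cre and at 1224 and 1102 in the controls, and its groups overlapped. The collapsin response mediator genes Dpysl2 and Dpysl3 had values of 0.02 and -0.01, and Dpysl3 was among the most abundant of the 43, at 42.9 RPKM. Crmp1, another gene of that family, was at 207 and 213 under Cre and at 177 and 150 in the controls, with 0.36 ± 0.14 (SE) and an adjusted p of 0.121.

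Among the axonal adhesion genes, 3 of 4 passed the threshold upwards, compared with 5.09% of all genes. These were Ncam1, L1cam and Nrcam, immunoglobulin superfamily molecules that act in axon growth and bundling. Ncam1 (chr9:49502136-49798925, minus strand) was at 5497 and 5673 normalized counts in the KO-labelled libraries and at 3999 and 4279 in the controls. L1cam (chrX:73853778-73896105, minus) was at 456 and 327 against 299 and 245. Nrcam (chr12:44328885-44601964, plus) was at 706 and 575 against 476 and 471. In all 3 genes the groups were apart, and in L1cam replicate 1 was the higher library in both groups.

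The log2 fold change of Ncam1 was 0.43 ± 0.04 (SE, adjusted p = 9.12e-06). That of L1cam was 0.51 ± 0.11 (SE, adjusted p = 0.00566), with 0.61 and 0.42 in the pairs. Nrcam gave 0.43 ± 0.09 (SE, adjusted p = 0.00568), with 0.57 and 0.29. L1cam and Nrcam lost the call in DESeq2 (adjusted p = 0.225 and 0.190), and L1cam shares part of its span with Arhgap4 on the same strand. Thy1, a small anchored glycoprotein of neurons that fibroblasts also carry, was the most abundant of the 43 genes at 97.8 RPKM. Its values of 12414 and 13993 under Cre overlapped the controls at 13039 and 13111, with a log2 fold change of 0.01.

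Among other members of these adhesion families, some fell. Of 6 tested, Ncam2, Chl1, Cntn1 and Cadm1 were lower and 0 were higher, compared with 6.29% and 5.09% of all genes. Chl1, which like Nfasc belongs to the L1 family with L1cam and Nrcam, was at 685 and 1027 in the KO-labelled libraries and at 1114 and 1222 in the controls. Cntn1, which encodes contactin, was at 2197 and 2845 against 3205 and 3335. Ncam2 was at 150 and 167 against 243 and 246, and Cadm1 at 327 and 366 against 462 and 584. In all 4 genes both libraries under Cre lay below both controls.

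The log2 fold changes were -0.63 ± 0.13 (SE, adjusted p = 0.00621) for Ncam2, -0.59 ± 0.10 (adjusted p = 0.000908) for Cadm1, -0.48 ± 0.09 (adjusted p = 0.00208) for Chl1 and -0.39 ± 0.06 (adjusted p = 0.000734) for Cntn1. Ncam2 lost the call in DESeq2 (adjusted p = 0.261). Nfasc and Alcam, the other 2, had positive values of 0.18 and 0.05 that did not pass. The median over the 6 was -0.43, compared with 0.43 over Ncam1, L1cam, Nrcam and Thy1. Both lists were chosen with earlier results of these data known, and the difference between them was not tested.

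**Figure D2:**
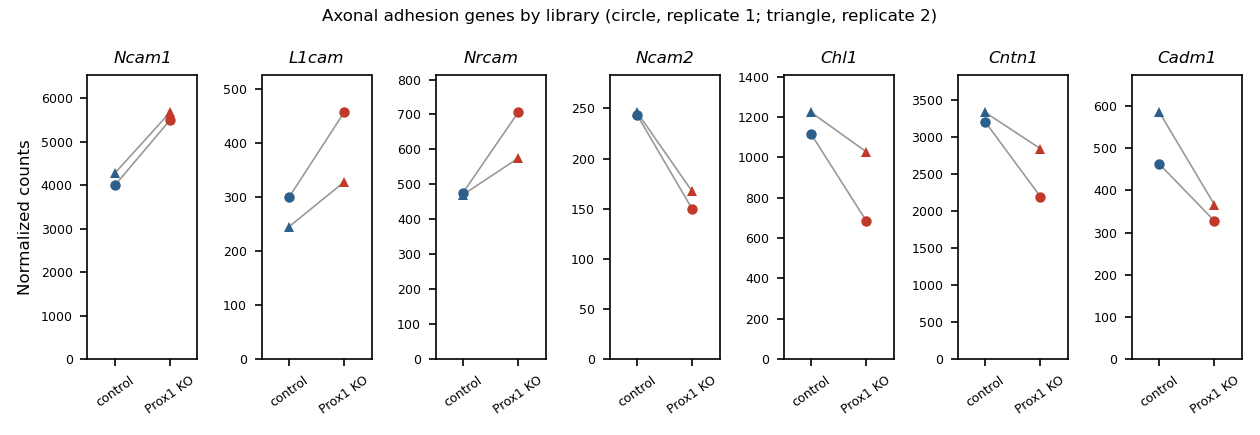
Normalized counts (vertical axes, each from 0) of the 7 axonal adhesion genes that passed the threshold, by group, with lines joining libraries of the same replicate number. Ncam1, L1cam and Nrcam rise from control to Prox1 KO in both pairs, and Ncam2, Chl1, Cntn1 and Cadm1 fall in both.

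The microtubule and neurofilament genes included 3 that rose among 6 tested, compared with 5.09% of all genes. Map1b (chr13:99421446-99516540, minus strand), which encodes a microtubule-associated protein of growing axons, was at 10521 and 9274 normalized counts in the KO-labelled libraries and at 8165 and 7553 in the controls. Map2 (chr1:66175273-66442583, plus), the classical dendrite protein of the same functional class, was at 3826 and 3315 against 3029 and 2821. Both genes had separate groups. The log2 fold changes were 0.33 ± 0.04 (SE, adjusted p = 7.02e-05) for Map1b and 0.28 ± 0.05 (SE, adjusted p = 0.001) for Map2. Map2 contains an antisense gene, Gm10558, within its span, and the strand setting used for counting is not given in the sources used here.

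Stmn2, a stathmin that destabilizes microtubules in growth cones, passed the threshold with overlapping groups. It was at 656 and 833 under Cre and at 491 and 759 in the controls, so that replicate 2 of the controls exceeded replicate 1 of the KO-labelled libraries. The log2 fold change was 0.28 ± 0.08 (SE, adjusted p = 0.0461), with 0.42 and 0.13 in the pairs. Its difference between replicate numbers was larger, 0.49 (replicate 2 minus replicate 1, adjusted p = 0.00148). The call was lost with edgeR (adjusted p = 0.0556), DESeq2 (0.572), voom and a pseudocount of 10, and without control replicate 1 the value was -0.038 in a fit with no block.

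Tubb3, the tubulin commonly stained to mark neurons, was at 1078 and 1020 normalized counts in the KO-labelled libraries and at 990 and 912 in the controls. The groups were apart, but the log2 fold change of 0.14 ± 0.06 (SE) did not pass the threshold (adjusted p = 0.195). Tubb3 stood at 11.9 RPKM, so the marker was transcribed in all 4 libraries. Mapt, which encodes tau, was at 21.8 and 21.5 against 34.9 and 24.5, the lowest log2 fold change of the 37 at -0.42 ± 0.33 (SE, adjusted p = 0.491).

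Neurofilament RNA was close to the floor. Nefm was at 42.6 and 54.7 normalized counts under Cre and at 42.2 and 31.9 in the controls (adjusted p = 0.442), and 28.2% of the windows of its longest transcript occur in the antisense gene Nefl. Nefl had between 0 and 5 reads and Nefh between 1 and 5 reads in any library. Dcx, the microtubule protein of migrating young neurons, had 0 and 1 reads under Cre and 2 and 0 in the controls. Stmn3 had 0 reads in both KO-labelled libraries and 3 and 4 in the controls, too few for a comparison.

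The 18 other microtubule and filament genes of these families gave a mixed picture, with 2 higher and 1 lower among 17 tested. Over all genes, 5.09% were higher and 6.29% lower. Map1a, the partner of Map1b in mature neurons, was at 12896 and 13075 in the KO-labelled libraries and at 11248 and 11676 in the controls, a log2 fold change of 0.18 ± 0.04 (SE, adjusted p = 0.00682). Map6, which stabilizes microtubules against cold, rose by 0.21 (adjusted p = 0.00352). Stmn1, the stathmin of dividing cells, was at 287 and 350 against 428 and 435, a value of -0.44 ± 0.10 (SE, adjusted p = 0.0115) that DESeq2 did not call (adjusted p = 0.325). The 12 other axon growth and transport genes had 3 higher and 0 lower among 11 tested, and these 3 were kinesins found in many tissues. Kif1b rose by 0.22, Kif1c by 0.21 and Kif5b by 0.20 on the log2 scale (adjusted p = 0.0028, 0.00583 and 0.00309), compared with 0.46 for Kif1a.

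Presynaptic genes showed no rise that passed the threshold among 9 tested, and 1 fell, compared with 5.09% higher and 6.29% lower over all genes. Syt11 (chr3:88744700-88775164, minus strand), an atypical synaptotagmin that does not bind calcium, was at 2015 and 2246 normalized counts in the KO-labelled libraries and at 2380 and 2652 in the controls. Its groups were apart, and both pairs gave -0.24, a log2 fold change of -0.24 ± 0.05 (SE, adjusted p = 0.00451) that was lost in DESeq2 (adjusted p = 0.138). Vamp2, the vesicle SNARE, was at 2469 and 2567 against 2283 and 2338, a value of 0.12 ± 0.05 (SE, adjusted p = 0.123) that passed only with a correction for GC content and length (adjusted p = 0.0332). Stx1a, the syntaxin that pairs with it, was at 266 and 275 against 211 and 234 (0.28, adjusted p = 0.164).

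Syn1, the synapsin of vesicle pools whose window held the RE1 letters, was at 77.9 and 111 under Cre and at 63.3 and 68.1 in the controls. The groups were apart, with a log2 fold change of 0.50 ± 0.21 (SE) and an adjusted p of 0.149. Syn1 exons overlap those of the antisense gene Araf, with 0% of the windows of its longest transcript found in other genes. Scg2, a granin of secretory granules, was at 74.8 and 46.9 against 42.2 and 46.8, and its rise of 0.81 in the replicate 1 pair met 0.00 in the other. Chga, another granin, was at 18.7 and 12.7 against 20.2 and 14.9. Snap25, the SNARE of the nerve terminal membrane, overlapped between groups at 57.2 and 42.0 against 41.3 and 57.5.

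Rab3a, a GTPase of vesicle docking, had a log2 fold change of 0.06 with pairs of opposite sign. Syt1, the calcium sensor for release, had -0.23 ± 0.16 (SE, adjusted p = 0.426), less than its difference of -0.76 between replicate numbers (adjusted p = 0.00721). Syp, which encodes synaptophysin, had between 3 and 13 reads. Among 21 tested genes of the same families, 1 was higher and 2 were lower, compared with 5.09% and 6.29% of all genes. Rab3b, a close relative of Rab3a, was at 802 and 508 against 545 and 345, a log2 fold change of 0.56 ± 0.08 (SE, adjusted p = 0.000483). Replicate 1 was the higher library in both groups, and the groups overlapped. Snap23, the counterpart of Snap25 outside neurons, fell by 0.25 on the log2 scale (adjusted p = 0.017), and Stxbp2, a syntaxin-binding protein of non-neuronal secretion, fell by 0.30 (adjusted p = 0.00584). DESeq2 called neither of these falls (adjusted p = 0.259 and 0.193).

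At the postsynaptic side, 1 of 5 tested genes passed, compared with 11.4% of all genes. Dlg4, the gene of the main scaffold of the postsynaptic density (chr11:70016942-70047522, plus strand), was at 3371 and 3114 normalized counts in the KO-labelled libraries and at 2952 and 2858 in the controls, a log2 fold change of 0.16 ± 0.05 (SE, adjusted p = 0.0392). It was no longer called by DESeq2 (adjusted p = 0.454), after quantile normalization (adjusted p = 0.0717) or with the GC content and length correction (adjusted p = 0.0613). The other 4 had positive values that did not pass. They were Shank3, a master scaffold, at 0.11, Nlgn2, an adhesion protein of inhibitory synapses, at 0.10, Dlg2, a relative of Dlg4, at 0.08, and Nrxn2, a presynaptic partner of neuroligins, at 0.05. Of 11 tested relatives, Dlg1 rose by 0.20 (adjusted p = 0.00605) and Homer1, a scaffold that links glutamate receptors to calcium stores, rose by 0.32 (adjusted p = 0.0349). DESeq2 called neither (adjusted p = 0.0692 and 0.572). No relative was lower, and over all genes 5.09% were higher and 6.29% lower.

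Of the transcription factors and RNA-binding proteins, none of 3 tested passed limma's threshold, compared with 11.4% of all genes. An unadjusted p under 0.05 was found for 2 of the 3. Over all 15809 genes tested, 3751 had such a p. Rbfox2, a splicing regulator of neurons and muscle, was at 13573 and 13591 in the KO-labelled libraries and at 12724 and 12606 in the controls, 0.10 ± 0.04 (SE, adjusted p = 0.117). Sox11, a factor of immature neurons, was at 291 and 294 against 226 and 250, 0.30 ± 0.12 (SE, adjusted p = 0.124). In both genes the libraries under Cre lay above the controls. Elavl4, a neuronal RNA-binding protein, had a log2 fold change of -0.01 at 8.5 to 15.6 normalized counts. Myt1l, the neuronal repressor of other cell fates, had 6 and 0 reads under Cre and 0 and 2 in the controls.

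Uchl1, a deubiquitinase abundant in neurons (chr5:66676091-66687234, plus strand), was at 2080 and 1629 normalized counts under Cre and at 1629 and 1512 in the controls. The lower KO-labelled library was within 1 normalized count of the higher control, at 1629.47 against 1628.55. The log2 fold change was 0.23 ± 0.06 (SE, adjusted p = 0.0245), with 0.35 and 0.11 in the pairs and a difference between replicate numbers of -0.23. DESeq2 did not call it (adjusted p = 0.338), and 12.3% of the windows of its longest transcript occur in the antisense gene Uchl1os. Eno2, neuron-specific enolase, was at 1706 and 1598 against 1909 and 1563, and its groups overlapped.

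**Figure D3:**
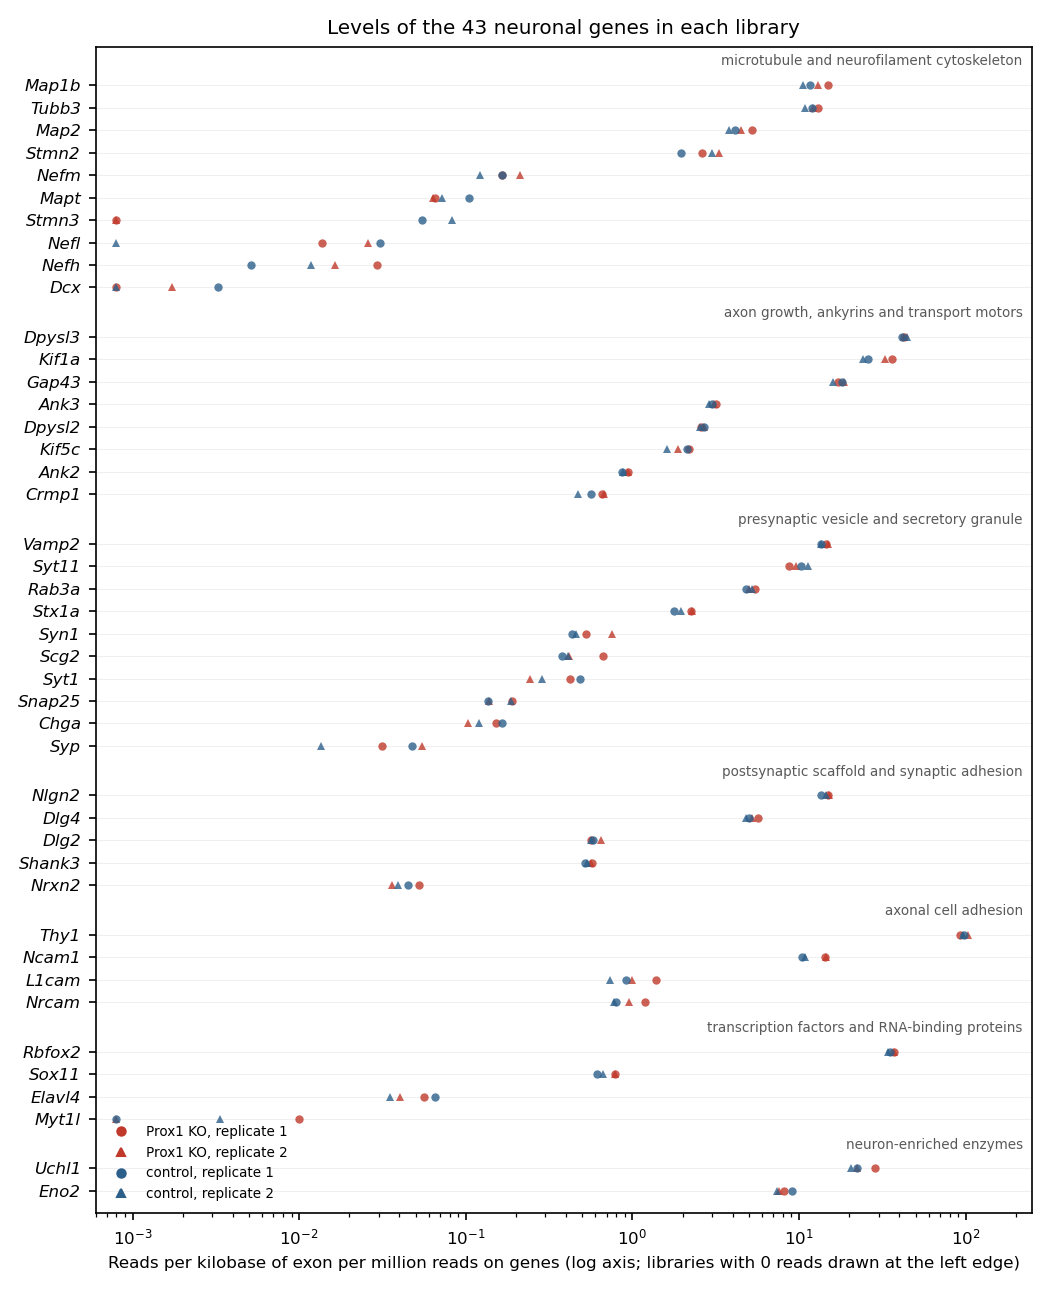
RPKM (horizontal log axis) of the 43 neuronal genes in each library, grouped by role, red for the KO-labelled libraries and blue for controls. Thy1, Dpysl3, Rbfox2, Kif1a and Uchl1 lie above 20, and the 6 untested genes, Dcx, Stmn3, Nefl, Nefh, Syp and Myt1l, are at the low end beside Nrxn2 and Elavl4.

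Levels per exon length separated the list more than the treatment did. After Thy1 at 97.8 and Dpysl3 at 42.9 RPKM came Rbfox2 at 36, Kif1a at 29.8 and Uchl1 at 23.4, and the median of the 37 tested genes was 2.63. Nrxn2 at 0.0431 and Elavl4 at 0.0491 were the lowest of the tested genes. None of the 43 had 0 reads in all 4 libraries.

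Genes that define neurons ranged from 0 reads in every library to 4.56 RPKM. Those that promote or repress neuronal fate ranged from 0 reads in every library to 81.9 RPKM. Of 29 proneural and neuronal transcription factors and their repressors, 16 reached the mean of 10. Of these, 0 passed limma's threshold, compared with 11.4% of all genes. Pou3f3, Rest and Id1 were the 3 with an unadjusted p under 0.05, compared with 3751 of all 15809 genes. For this list edgeR and DESeq2 also called 0. Neurog1, Neurod4 and Pou3f2 had 0 reads in every library. Rest, the RE1-binding repressor, was at 2436 and 2128 against 2249 and 1980 (0.11, adjusted p = 0.191), and Ptbp1, a splicing repressor that keeps neuronal exons out, was at 11606 and 10817 against 10836 and 11388 (0.01). With a correction for GC content and length, Id1, an inhibitor of proneural factors, passed upwards (adjusted p = 0.0271). Its groups overlapped, at 3082 and 2141 normalized counts under Cre and 2974 and 1883 in the controls. The log2 fold change of 0.12 in the main test was smaller in size than the -0.59 between replicate numbers (limma, adjusted p = 2.17e-06). In the test of replicate number 6 of the 16 passed, all lower in replicate 2, compared with 7.88% of all genes. Id3 was the most abundant gene of this list at 81.9 RPKM.

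Of 20 neuron-defining genes, such as transmitter enzymes, transporters and channels, 10 were tested and 1 passed, compared with 11.4% of all genes. Slc5a7, the choline transporter, was at 1223 and 1286 in the KO-labelled libraries and at 1069 and 1039 in the controls, 0.25 ± 0.06 (SE, adjusted p = 0.0167), and it was the most abundant of the 20. DESeq2 did not call it (adjusted p = 0.374). Slc32a1 and Chat had 0 reads in every library, Rbfox3, the gene of the NeuN antigen, had between 0.918 and 3.91 normalized counts, and Gad1 had reads in 1 control library only. The summed level of the 20 genes was 2003 and 2046 normalized counts under Cre and 1818 and 1794 in the controls, most of it Slc5a7.

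**Figure D4:**
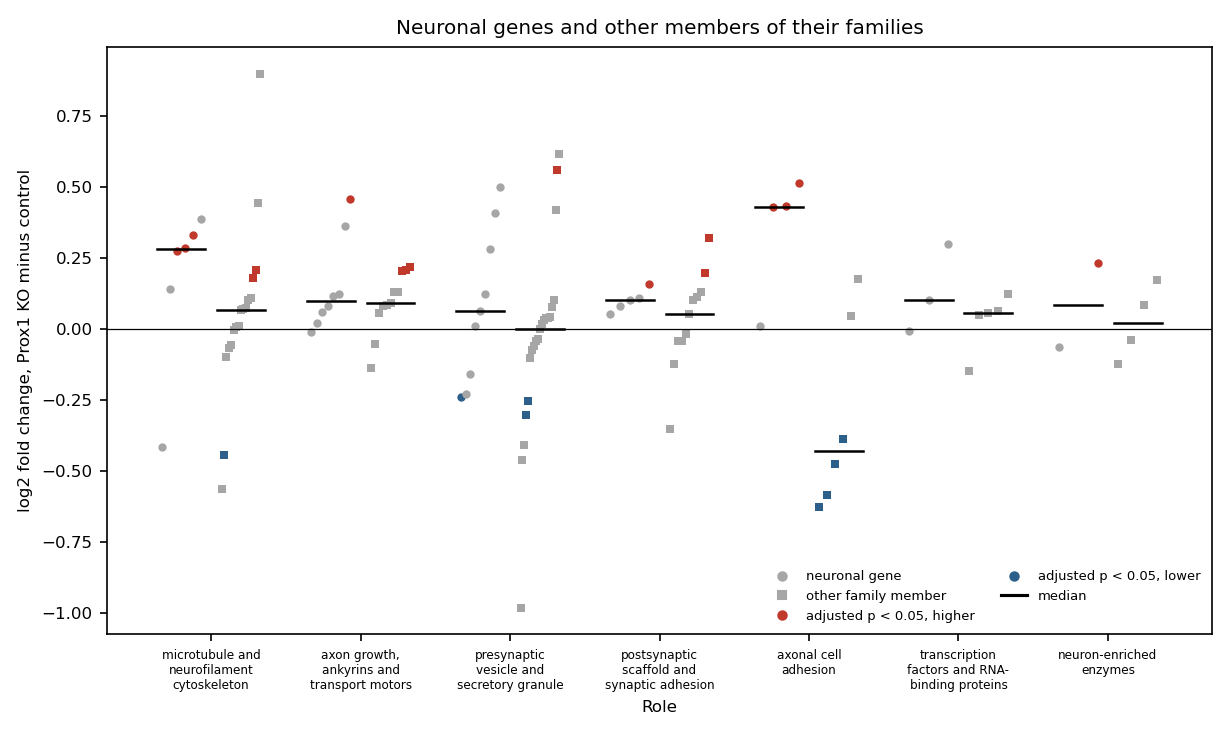
log2 fold changes (vertical axis, Prox1 KO minus control) of the tested neuronal genes (circles) and other members of their families (squares), by role, with the median of each group as a line. The axonal adhesion genes have medians of 0.43 and -0.43, and the other roles have medians of at most 0.28. Genes of both kinds were chosen with earlier results of these data known.

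Over the 75 tested relatives of the neuronal genes, 8 were higher (10.7%) and 7 were lower (9.33%). The shares over all genes tested were 5.09% and 6.29%. The relatives had a median log2 fold change of 0.04. Relatives thus passed in both directions, whereas the 37 neuronal genes passed 9 times upwards and 1 time downwards. Both lists were chosen with earlier results of these data known, and this difference was not tested. The gene listed as Sypl was taken for Sypl1 by its synonym, and Vamp7 was not analysed here. The relatives share Rbfox3 with the neuron-defining list and Chgb with the neuroendocrine list.

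Some marker genes of other cell types differed between the groups. Of 10 fibroblast genes, 5 were lower (Col3a1, Dcn, Lum, Pdgfra and Fbln1) and 0 higher, and their summed level was 696113 and 892154 normalized counts under Cre and 781641 and 977451 in the controls. Col1a1, the most abundant, was not called (0.05, adjusted p = 0.634). The groups overlapped for 8 of the 10 fibroblast genes. In the test of replicate number 7 of the 10 passed, all higher in replicate 2, compared with 7.88% of all genes. The median size of their log2 difference was 0.42 between replicate numbers and 0.29 between the groups. Of 8 tested hepatocyte genes, 6 were lower (Ttr, Trf, Apoa1, Apob, Serpina1a and Fgb), with sums of 10024 and 12381 against 14858 and 19759. DESeq2 called 3 of the 5 fibroblast genes, without Dcn and Pdgfra, and 4 of the 6 hepatocyte genes, without Apoa1 and Serpina1a. Alb, the most abundant hepatocyte gene, was at -0.10 (adjusted p = 0.158). The part of these shifts in the neuronal gene values was not tested.

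Schwann cells and glia, skeletal muscle and neuroendocrine cells share some of the 43 genes. Of 7 tested Schwann and glial genes 1 was lower, Mbp at -0.57 (adjusted p = 0.0054), and Sox10 and Foxd3 had at most 2 reads in any library. Pmp22 was the most abundant of them, with sums for the list of 9711 and 10158 against 10229 and 9545. Of 5 tested muscle genes 1 was higher, Des at 1553 and 1560 against 1125 and 1311 (0.36, adjusted p = 0.00167), while Myf5 had 0 reads and Myod1 and Myog at most 1. DESeq2 called neither Mbp nor Des (adjusted p = 0.224 and 0.0507). Over all genes tested, limma called 6.29% lower and 5.09% higher. The muscle list summed to 1729 and 1756 against 1288 and 1450. Of 6 tested neuroendocrine genes none passed limma's threshold or those of edgeR and DESeq2. None had an unadjusted p under 0.05, compared with 3751 of all 15809 genes. The neuroendocrine sums were 488 and 515 against 460 and 544, with Pcsk1 the most abundant. That list holds Chga, Scg2 and Syp of the 43.

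Endothelial and macrophage genes were few. Kdr, the most abundant endothelial gene, was higher at 938 and 770 against 564 and 509 (0.67, adjusted p = 4.75e-05), while Cldn5 had 0 reads in all libraries and Cdh5 and Pecam1 were under the mean of 10. Kdr was the 1 gene called higher among 3 tested, compared with 5.09% of all genes. The endothelial list summed to 1067 and 949 against 751 and 646. None of 3 tested macrophage genes passed limma, edgeR or DESeq2. An unadjusted p under 0.05 was found for 1 of the 3 and for 3751 of all 15809 genes. Adgre1 had 0 reads and Cd68 was the most abundant, and the sums were 306 and 360 against 304 and 285.

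Replicate number moved neuronal genes as well. With the replicate term of the same fit tested as its own comparison, a choice made after the data were seen, 6 of the 37 genes passed, 1 higher and 5 lower in replicate 2, compared with 7.88% of all genes. The 5 were Map1b, Kif5c, Syt1, L1cam and Uchl1, and the 1 higher was Stmn2. L1cam is X-linked, and the part of the Xist difference in its value was not tested. The median size of the log2 difference over the 37 was 0.10 between replicate numbers and 0.16 between the groups. Signs agreed between the pairs for 27 of the 37 genes, compared with 65.8% of all genes tested.

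The neuronal genes were long, with a median transcript length of 5020 bases for the 37 compared with 3213 for all tested genes. Across 15797 genes, which share libraries and are not independent, the log2 fold change and transcript length had a Spearman's rho of 0.14, and the value for GC content was 0.01. With a correction for both, 10 of the 37 genes passed, 9 of them shared with the test above, and the median log2 fold change was 0.10.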

How the data were processed

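RNA-seq was done on 4 libraries of reprogrammed MEFs. The authors aligned reads with STAR to mm10, and the deposited signal values are read counts divided by DESeq2 size factors, and multiplying by the size factors gave whole reads for 100% of values (tolerance 0.001 reads). Size factors spanned 0.939 to 1.09. The counting tool, annotation and strand setting are not given in the sources used here. A second deposited table holds the authors' own comparison (log2 fold changes, p-values) and was not used. Groups came from the labels.

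limma 3.58.1 (R 4.3.3) was fitted to log2(normalized counts + 1) for genes with a mean of at least 10, with the replicate number as a block and Benjamini-Hochberg adjustment at 0.05. Same-numbered libraries deviated together (correlation 0.40), and the study used the MEF line as a covariate. limma took each SE and p-value largely from the spread of genes at similar levels. An SE can therefore be small although a gene's own pairs differ, as for Chl1, with an SE of 0.09 and pairs of -0.70 and -0.25. With 2 libraries in each group and spread taken largely from other genes, p-values do not measure a gene's own spread between independent cultures. edgeR 4.0.16, DESeq2 1.42.0 and voom were run on recovered reads, and scripts were tested on simulated data. All 43 genes were described, and other genes by list. The genes and lists were chosen with earlier results of these data known. Promoter sequences came from RefSeq (GRCm38.p6) and positions from GENCODE on GRCm38. Windows shared between genes are short stretches of a gene's transcript found again in transcripts of a different gene, on either strand.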

Additional observations from a re-analysis of the deposited data

How the results depend on the processing

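With the replicate block, the count of neuronal genes past the threshold was 9 or 10 under both pseudocounts, both other filters, quantile normalization, edgeR, voom and the GC content and length correction, and 4 with DESeq2. Without the replicate block it was 0, and it ranged from 0 to 1 when 1 library was left out with no block, with the 1 call, Kif1a, made without Prox1 KO replicate 2. For the relatives, 15 calls became 9 with DESeq2, 0 without the block and 0 to 2 with 1 library left out. The transcription factor list had 1 call, Id1, with the GC content and length correction. The 1 neuron-defining call, Slc5a7, became 0 with DESeq2, without the block and with any 1 library left out. The median log2 fold change of the 37 genes, 0.11, was 0.12 without replicate 1 and 0.15 without replicate 2, and 0.10 to 0.18 with 1 library left out (0.14 without control replicate 1, 0.13 without control replicate 2), and the mean was 0.15. Of the single genes, Stmn2 turned to -0.038 without control replicate 1 and Dcn to 0.090 without Prox1 KO replicate 1, both with no block. For the 10 called genes, 79 of 90 values with the block kept their call and 11 lost it. The cause of these changes was not tested. Depth limits the 6 genes under a mean of 10, which could not be compared.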
